A study of Mus musculus with 4 samples.

Results

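Cluster 18 is 1 of the 5 clusters that the authors' deposited annotation places in its Fibroblasts class, and it held 1205 of the 12336 cells of that class (9.77%) and of the 45936 cells of the whole series. Its members were taken by 2 deposited labels, the class name and the cluster number, and by no measured value. The cells came from mouse alveolospheres, organoid co-cultures of LysoTracker-positive alveolar type 2 (AT2) cells and PDGFRα+ lung fibroblasts. In the knockdown (KD) group, wild-type AT2 cells were grown with fibroblasts in which YAP and TAZ were knocked down (2 libraries). In the control group both cell types were wild type (2 libraries). Both groups received 3 µg/ml doxycycline from day 7 on and were collected on day 14, so the inducer was shared. The labels do not describe the construct behind the knockdown beyond its specificity for PDGFRα cells.

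Lung fibroblasts that carry PDGFRα sit next to AT2 cells and supply them with growth factors and Wnt ligands, and they build the elastic matrix of the alveolus. YAP (gene Yap1) and TAZ (gene Wwtr1) are transcriptional co-activators that enter the nucleus under mechanical load or low Hippo signalling and act through TEAD factors. Iron export by ferroportin, production of reactive oxygen species by NADPH oxidases and assembly of elastic fibres are separate processes in which genes named below take part.

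Cluster 18 held 48 and 11 cells in the KD libraries, against 627 and 519 cells in the control libraries. These were 2.11% (95% exact binomial interval 1.56 to 2.79%) and 0.681% (0.340 to 1.21%) of the Fibroblasts class in the KD libraries, and 14.9% (13.9 to 16.0%) and 12.2% (11.3 to 13.2%) in the control libraries. Intervals here and below cover counting error only. Of the cells of cluster 18, 95.1% were control cells, against 68.5% of the whole class. Both control shares lay above both KD shares. Because the clusters were drawn with genes that the knockdown may itself change, fewer cells of this kind and cells moved to another cluster cannot be told apart, and the shares were not tested. Cluster 0 was also mostly control, with 66 and 23 cells in the KD libraries and 2412 and 2035 in the control libraries. Cluster 5 was mostly KD, with 1393 and 1149 cells in the KD libraries and 7 and 76 in the control libraries. Clusters 8 and 11 held 86 or more cells in every library.

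**Figure D1:**
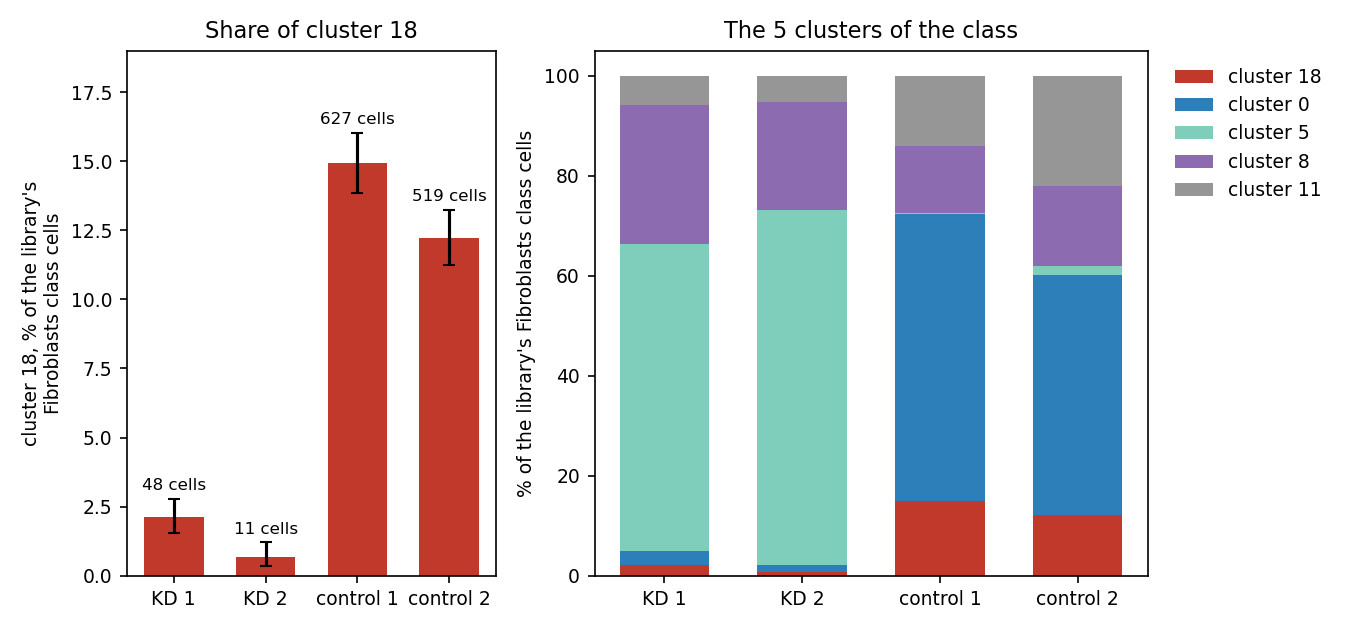
Left, cells of cluster 18 as a percent of the Fibroblasts class in each library (bars) with 95% exact binomial intervals (lines) and the number of cells. Right, the shares of the 5 clusters of the class stacked to 100%. Cluster 18 made up 2.11% and 0.681% of the class in the KD libraries and 14.9% and 12.2% in the control libraries.

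The 4 libraries held 6508 to 15000 cells and 44284602 to 71523447 unique molecular identifiers (UMIs, each standing for 1 captured RNA molecule) in all. Cluster 18 itself summed to 193233 and 59604 UMIs in the KD libraries and to 1817179 and 1549419 UMIs in the control libraries. A single UMI was therefore worth 5.18 and 16.8 CPM (UMIs per 1000000 UMIs of the sum) in the KD libraries and 0.550 and 0.645 CPM in the control libraries, so low levels in the KD libraries are coarse. Cells of cluster 18 were shallower than those of the rest of the class. Their median depth was 3154.5 and 3949 UMIs in the KD libraries and 2290 and 2388 UMIs in the control libraries, below each of the other 4 clusters in every library. Their median mitochondrial share was 22.2% and 15.3% in the KD libraries and 17.7% and 16.2% in the control libraries, again below clusters 0, 5, 8 and 11 in the same library. The median deposited doublet enrichment, a score made from the ATAC data, was 0.36 and 0.49 in cluster 18 of the control libraries, against 0.36 and 0.48 in cluster 0. There were 54 cell barcodes of cluster 18 that also occurred in another library.

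The label of the class was checked against markers. Pdgfra, the receptor by which the fibroblasts were chosen, stood at 398 and 470 CPM in KD cells and at 342 and 362 CPM in control cells of cluster 18, and clusters 0, 8 and 11 of the control libraries ran from 299 to 453 CPM. The summed level of the 6 general fibroblast markers was 5496 and 7013 CPM in KD cells and 6202 and 8109 CPM in control cells of cluster 18, inside the 5211 to 9271 CPM of clusters 0, 8 and 11 in the control libraries. The 10 alveolar fibroblast markers summed to 2287 and 2064 CPM in KD cells and to 2337 and 2108 CPM in control cells of cluster 18. The other 4 clusters held 1150 to 1626 CPM in KD libraries and 1219 to 2057 CPM in control libraries, below cluster 18 of the same library in each case. Of the 8 of these markers measured, Fgf10 was higher by the rule given below, and Tcf21, which defines the type, stood at 4.40 and 1.94 CPM in control cells. The 9 adventitial markers summed to 507 and 570 CPM in KD cells and to 346 and 463 CPM in control cells of cluster 18. Control clusters 0, 8 and 11 held 255 to 344 CPM, below cluster 18, and control cluster 5 held 401 and 422 CPM, while the KD sums of the other 4 clusters, 214 to 637 CPM, ran to both sides. None of the 5 adventitial markers measured was higher or lower by that rule, and Pi16 and Cd34 were at 1.65 CPM or less in control cells. The immune markers summed to 5.18 and 0 CPM in KD cells and to 7.70 and 3.87 CPM in control cells, and Cdh5, Kdr and Tie1, which define endothelium, were at 0 in control cells. The 5 endothelial markers summed to 56.9 CPM in KD library 1 and to 16.8 CPM in KD library 2, against 2.75 and 12.3 CPM in control cells. The value of KD library 2 is 1 UMI, too coarse to be set above the control cells. The part of endothelial RNA in the KD values below was not tested. AT2 markers, led by surfactant protein C, summed to 2448 and 1191 CPM in KD cells and to 1017 and 1083 CPM in control cells of cluster 18. The other 4 clusters carried 1948 to 2497 CPM of the same markers in KD library 1 and 725 to 1206 CPM in KD library 2, ranges that include cluster 18. In the control libraries they carried 745 to 1020 CPM, and cluster 18 was the highest in each library. No narrower name is given to cluster 18 here.

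A second deposited annotation of the same cells split cluster 18. It called 1060 of the 1205 cells Fibroblasts, 106 Myofib-like, 22 Mmp9+ Fibroblasts and 12 Unknown Mesenchymal, with 5 cells in other labels. The Mmp9+ label covered 12 of 48 and 1 of 11 cells in the KD libraries, against 2 of 627 and 7 of 519 cells in the control libraries. Between its larger sub-labels in control cells, elastin (Eln) stood at 1499 and 2369 CPM in Myofib-like cells and at 865 and 982 CPM in Fibroblasts cells. Tgfbi, a matrix protein induced by TGF-β, stood at 230 and 298 CPM in Myofib-like cells and at 65.4 and 66.9 CPM in Fibroblasts cells. The growth factor gene Fgf10 went the other way, with 145 and 84.0 CPM in Myofib-like cells and 445 and 361 CPM in Fibroblasts cells. Slc40a1 stood at 255 and 298 CPM in Myofib-like cells and at 250 and 219 CPM in Fibroblasts cells. The smooth muscle actin gene Acta2 overlapped between them, at 170 and 140 CPM in Myofib-like cells and 163 and 181 CPM in Fibroblasts cells. The Myofib-like sums rest on 55 and 43 cells.

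Leading genes of cluster 18 were those whose level in cluster 18 was above the highest of clusters 0, 5, 8 and 11 in each of the 4 libraries, on a scale of log2(CPM + 5). Of 5160 genes with a mean of at least 30 CPM in cluster 18, 451 met this rule (8.74%). Since the clusters were drawn with these same genes, this is a description of what sets the cluster apart, with no test. The 20 genes with the largest margin in their weakest library are described here. The last of them, Fmo2, had a weakest margin of 0.99 on the log2 scale, and the first gene left out, Cped1, had 0.98. With cells of under 20% mitochondrial UMIs alone, which leaves 14 and 9 KD cells, the rule was met by 182 genes, and Nwd2, Peli2, Zfp423, Ppargc1b and Fmo2 no longer met it.

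The gene with the widest margin was Slc40a1 (ENSMUSG00000025993, GRCm38 chromosome 1, 45908068 to 45926523, minus strand), which encodes ferroportin, the exporter of iron from cells. It stood at 233 and 185 CPM in KD cells and at 249 and 220 CPM in control cells of cluster 18. The other 4 clusters did not exceed 38.8 CPM among sums of KD clusters 5, 8 and 11, or 30.3 CPM among sums of control clusters 0, 8 and 11. All 4 values of cluster 18 therefore lay above all of these. The weakest margin was 2.11 on the log2 scale, in KD library 2. Thinned to 1000 UMIs per cell, 124 of 620 and 90 of 513 control cells of cluster 18 had a UMI of Slc40a1 (38.6% and 35.6% unthinned, at median depths of 2290 and 2388 UMIs), against 3 of 488 and 1 of 492 AT2 cells of cluster 9 in the same libraries (1.84% and 1.22% unthinned, at 3614 and 3812.5 UMIs). Thinning left out 7 and 6 control cells of cluster 18 that were shallower than that, and no AT2 cell.

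Spon1, which encodes the secreted matrix protein F-spondin, stood at 569 and 705 CPM in KD cells and at 754 and 709 CPM in control cells of cluster 18. Clusters 0, 8 and 11 of the control libraries held 27.0 to 130 CPM, and no value overlapped. Thinned as above, 49.5% and 48.7% of control cells of cluster 18 had a UMI of Spon1, against 1.43% and 0.203% of AT2 cells. Thsd4, whose product promotes the assembly of fibrillin microfibrils, stood at 414 and 419 CPM in KD cells and at 480 and 386 CPM in control cells, against at most 128 CPM in clusters 0, 8 and 11 of the control libraries. Thsd4 was also found in 23.0% and 19.3% of thinned AT2 cells of the control libraries, so its UMIs were not limited to fibroblasts. Chsy3, a synthase of chondroitin sulfate chains, stood at 207 and 185 CPM in KD cells and at 316 and 312 CPM in control cells of cluster 18.

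Megf10 encodes an engulfment receptor and stood at 155 and 168 CPM in KD cells and at 150 and 144 CPM in control cells of cluster 18, against 2.70 to 6.09 CPM in control clusters 0, 8 and 11. In KD libraries its nearest neighbour was cluster 5, with 53.3 and 51.0 CPM. Calcrl, the receptor subunit for adrenomedullin and calcitonin gene-related peptide, stood at 88.0 and 218 CPM in KD cells and at 73.7 and 91.7 CPM in control cells. Ace, the angiotensin-converting enzyme, stood at 373 and 503 CPM in KD cells and at 385 and 430 CPM in control cells. Calcrl and Ace are also known from endothelium. The 5 endothelial markers summed to 56.9 and 16.8 CPM in KD cells, the second from 1 UMI, and to 2.75 and 12.3 CPM in control cells. The part of endothelial RNA in the levels of Calcrl and Ace was not tested. Prex2 and Elmo1, both activators of the Rac GTPase pathway, stood at 189 and 176 CPM and at 128 and 92.9 CPM in control cells of cluster 18. In KD cells Prex2 read 88.0 and 151 CPM and Elmo1 read 114 and 50.3 CPM, the last from 3 UMIs.

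Nox4, a NADPH oxidase that makes hydrogen peroxide, stood at 217 and 252 CPM in KD cells and at 277 and 238 CPM in control cells of cluster 18, above a highest value of 103 CPM in control clusters 0, 8 and 11. Fmo2, the flavin monooxygenase typical of lung, stood at 336 and 352 CPM in KD cells and at 403 and 339 CPM in control cells. Tbx2, a T-box transcription factor of lung mesenchyme, stood at 233 and 268 CPM in KD cells and at 205 and 196 CPM in control cells, against 60.8 to 84.8 CPM in control clusters 0, 8 and 11. Zfp423, a transcription factor known from preadipocytes, and Ppargc1b, a co-activator of mitochondrial genes, were the lowest of the 20, at 39.0 ± 8.63 and 39.5 ± 0.178 CPM in control cells (SD, n = 2), and rest on 2 and 3 UMIs in KD library 2. The remaining leaders were Eepd1, Tmcc3, Nwd2, Nrep, Sntb1 (a syntrophin of the dystrophin complex) and Peli2 (a ubiquitin ligase of innate immune signalling). Nrep stood at 279 and 369 CPM in KD cells and at 406 and 419 CPM in control cells, and Eepd1 at 62.1 and 185 CPM in KD cells and at 74.8 and 57.4 CPM in control cells. Tmcc3 and Elmo1 overlap other annotated genes on the same strand, which held at most 2.20 CPM in control cells of cluster 18.

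**Figure D2:**
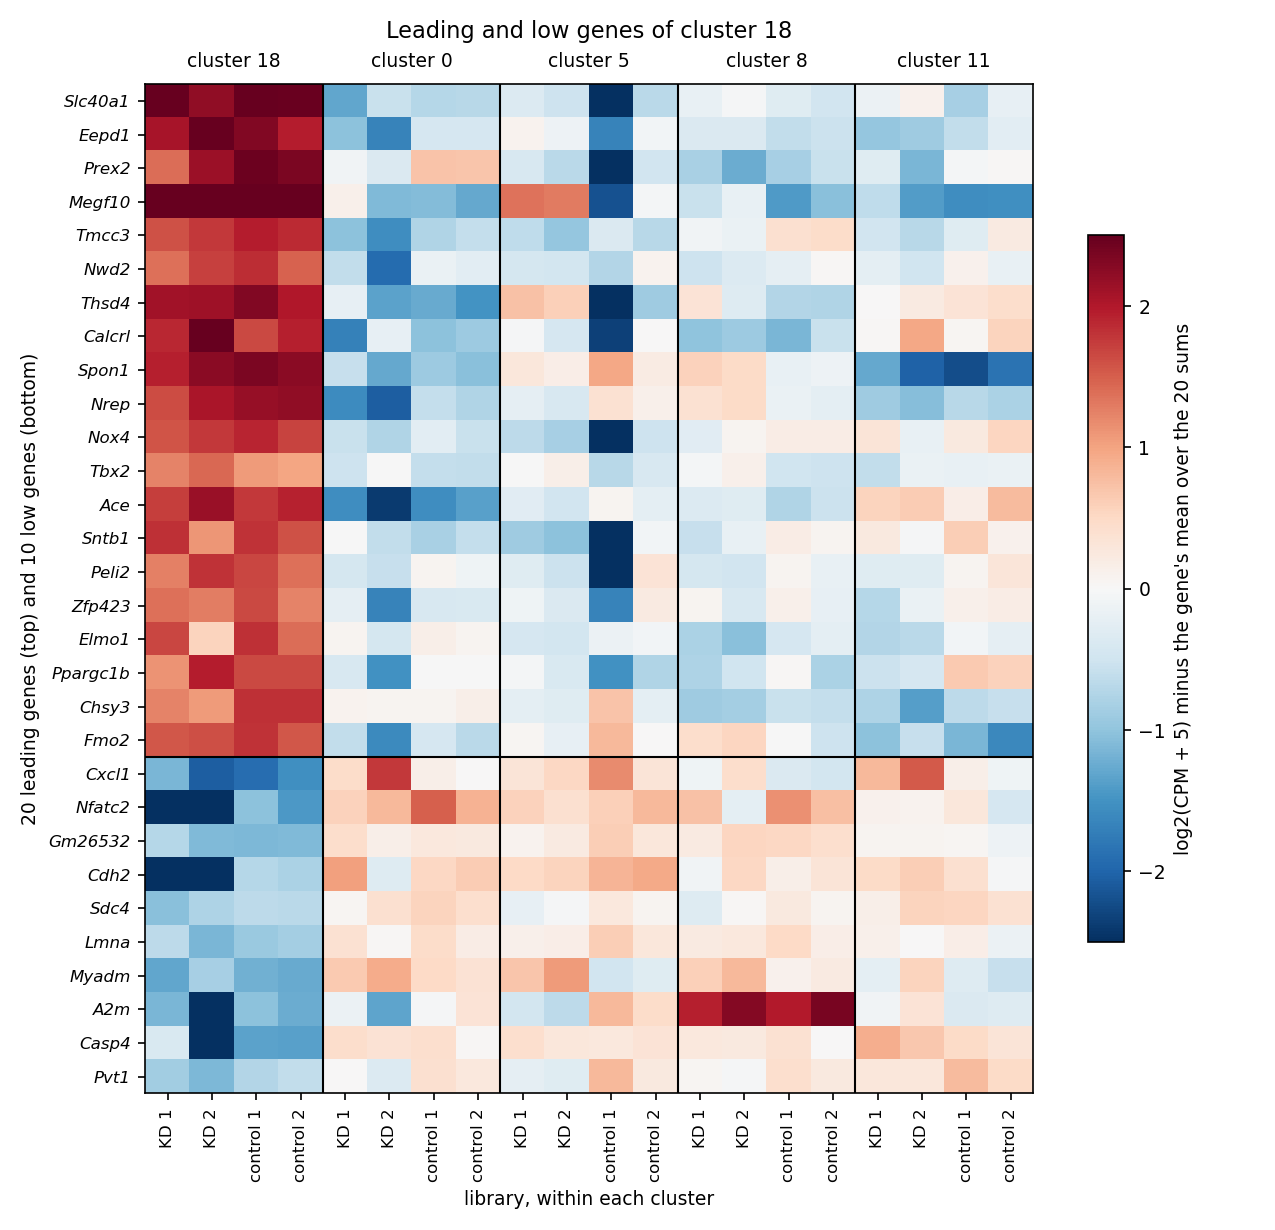
The 20 leading genes and 10 of the 12 low genes (rows) in the sums of each cluster and library (columns, cluster 18 at the left). Colour gives log2(CPM + 5) minus the gene's mean over all 20 sums, and cluster 5 of control library 1 rests on 7 cells. The top rows are red throughout the 4 columns of cluster 18 and the bottom rows are blue there.

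The leading genes were shared among cells of the cluster. After thinning to 1000 UMIs, the median number of the 20 leading genes with a UMI in a cell was 3 and 4 in KD cells and 4 in both control libraries of cluster 18, against 0 or 1 in clusters 0, 5, 8 and 11 of every library. At least 3 of the genes were seen in 66.7% and 100% of KD cells and in 75.6% and 70.6% of control cells of cluster 18, and in 0 to 10.5% of cells of the other 4 clusters. These genes chose themselves by the clusters compared, so the figures describe how evenly they are spread and support nothing further. Across the 21 deposited clusters of all classes with at least 50 cells in each control library, cluster 18 ranked first for 13 of the 20 genes, second for 5 and in place 3 for 2. For 12 of the 20 the highest other cluster was cluster 22, of the class deposited as Unknown Mesenchymal. Slc40a1 averaged 235 CPM in control cells of cluster 18 and 272 CPM in cluster 22, and Thsd4 averaged 433 CPM in cluster 18 and 681 CPM in cluster 22. Spon1 averaged 732 CPM in cluster 18 and 324 CPM in the next highest, the Myofib-like cluster 15. Sntb1 averaged 104 CPM in cluster 18, below the 143.5 CPM of AT2 cluster 9 and the 110 CPM of Cycling AT2 cluster 20.

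Low genes of cluster 18 were chosen by the mirrored rule, and 155 of 4070 genes met it (3.81%). Cxcl1, a chemokine that attracts neutrophils, stood at 36.2 and 16.8 CPM in KD cells and at 19.3 and 26.5 CPM in control cells of cluster 18, against 61.3 to 96.3 CPM in control clusters 0, 8 and 11. Lmna, which encodes lamins A and C of the nuclear envelope, stood at 378 and 268 CPM in KD cells and at 311 and 327 CPM in control cells, against 539 to 843 CPM in the same neighbours. Sdc4, a syndecan of focal adhesions, stood at 124 and 151 CPM in KD cells and at 166 and 163 CPM in control cells, against 276 to 387 CPM. Casp4, an inflammatory caspase, stood at 109 and 16.8 CPM in KD cells and at 53.4 and 52.9 CPM in control cells, against 145 to 201 CPM. In each of these 4 genes no control value of cluster 18 overlapped its neighbours. The 16.8 CPM of Cxcl1 and of Casp4 in KD library 2 was 1 UMI each. Nfatc2, the cadherin gene Cdh2, A2m and the noncoding Gm26532 and Pvt1 were also on the list, with Nfatc2 and Cdh2 at 0 UMIs in both KD libraries. Myadm, another gene on the list, overlaps an annotated gene on the same strand, so its level is uncertain.

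Because cluster 5 is nearly empty in controls and cluster 18 nearly empty in KD libraries, the gene lists were read in the 2 control libraries against clusters 0, 8 and 11, a choice made after the data were seen. A gene counted as higher if its CPM + 5 was at least 1.5 times the highest CPM + 5 of those clusters in both control libraries. It counted as lower by the mirrored rule, and at least 10 CPM on average was required. Over all 8643 genes measured, 201 were higher (2.33%) and 87 were lower (1.01%). The median gene stood 0.10 higher in cluster 18 on the log2 scale than the mean of clusters 0, 8 and 11, and the mitochondrial share of cluster 18 was smaller, as given above; its part in this shift was not tested. Of 341 measured genes on the 25 pathway and 22 marker lists, 23 were higher and 11 were lower. In 13 of the 25 pathway lists no gene was either.

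Wnt ligands are the signals named in the study's title. Wnt4 (ENSMUSG00000036856, chromosome 4, 137277489 to 137299726, plus strand) was the 1 of 4 measured ligands and R-spondins that was higher, at 77.6 and 55.5 CPM in control cells of cluster 18. Control clusters 0, 8 and 11 held 9.73 to 33.1 CPM, without overlap. In all 21 clusters, cluster 18 ranked second for Wnt4, at 66.5 ± 15.6 CPM (SD, n = 2), after 104 CPM in cluster 10 of Inflammatory Fibroblasts-2. Cluster 5, with 7 and 76 cells in the control libraries, was in neither comparison. Thinned as above, 7.89% of cluster 5 cells of control library 2 had a UMI of Wnt4, against 5.85% in cluster 18. In control library 1 the shares were 0% in cluster 5 and 8.39% in cluster 18. In KD libraries they were 5.53% and 8.10% in cluster 5, against 2.08% and 0% of the 48 and 11 cells of cluster 18. Wnt4 was thus not shown to be higher in cluster 18 than in cluster 5. In KD cells of cluster 18 Wnt4 rested on 11 and 1 UMIs, 56.9 CPM (95% exact Poisson interval 28.4 to 102) and 16.8 CPM (0.425 to 93.5). The median of the list was 0.21 on the log2 scale. None of 4 secreted Wnt antagonists and none of 3 β-catenin targets measured was higher or lower.

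Among 18 measured YAP/TAZ targets, 3 were higher and 1 was lower, with a median of 0.23 against 0.10 over all genes. Ccn2, a matricellular growth factor and a classical target, stood at 152 and 123 CPM in control cells of cluster 18, against 30.4 to 63.5 CPM in control clusters 0, 8 and 11. Gadd45a, a stress sensor of DNA damage, stood at 85.3 and 92.9 CPM against 40.0 to 51.9 CPM, and the forkhead factor Foxf2 at 25.3 and 27.8 CPM against 10.3 to 16.6 CPM. Among the 21 clusters, cluster 18 was in place 2 for Foxf2 and in place 6 for Ccn2. The highest for Ccn2 was cluster 2 of Transitional epithelial cells, at 910 CPM. Crim1, which binds BMPs at the cell surface, was the lower one, at 45.1 and 36.8 CPM against 64.5 to 107 CPM. Of the 16 measured genes of the Hippo pathway and the TEAD family none was called.

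Growth factors of the alveolar niche went both ways. Fgf10, the fibroblast ligand that drives lung epithelial growth, stood at 378 and 403 CPM in KD cells and at 420 and 336 CPM in control cells of cluster 18, against 76.2 to 214 CPM in control clusters 0, 8 and 11. In control libraries cluster 18 was the highest of all 21 clusters for Fgf10. Thinned as above, 12 of 48 and 2 of 11 KD cells of cluster 18 had a UMI of Fgf10. The shares in the same libraries were 29.2% and 34.8% in cluster 0 and 20.5% and 24.0% in cluster 5. They were lower in clusters 8 (12.1% and 17.3%) and 11 (5.22% and 15.1%). In KD libraries Fgf10 was thus not shown to be higher in cluster 18 than in clusters 0 and 5. Fgf2 stood at 258 and 273 CPM in control cells of cluster 18, against 79.3 to 154 CPM, and the vascular ligand Angpt1 at 51.7 and 45.2 CPM, against 17.9 to 27.7 CPM. Among the 21 clusters, cluster 18 was in place 2 for Fgf2 and in place 5 for Angpt1. Nrg1, an ErbB receptor ligand, was lower, at 40.7 and 42.6 CPM against 86.7 to 216 CPM. Vegfd, a lymphatic growth factor, was lower too, at 28.6 and 34.2 CPM against 47.0 to 69.3 CPM. These 5 of 18 measured genes left a list median of -0.09. In the TGF-β and BMP list 1 of 18 was called, the ligand Bmp5, at 145 and 156 CPM against 33.0 to 75.8 CPM.

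Matrix genes were split in the same way. Eln, the core protein of elastic fibres, stood at 626 and 1023 CPM in KD cells and at 898 and 1035 CPM in control cells of cluster 18. Control clusters 0 and 11 held 81.8 to 159 CPM and cluster 8 held 444 and 460 CPM. In KD libraries cluster 8 held 711 and 620 CPM of Eln, and cluster 11 held 249 and 74.4 CPM. These KD values carry the library scaling (TMM) of the knockdown test below, so their scale differs slightly. In KD library 1 cluster 8 was thus not shown to lie below cluster 18. The transmembrane collagen Col23a1 was the 1 of 19 measured collagens that was higher, at 315 and 317 CPM in control cells against 51.6 to 148 CPM. Thbs2 and Fbln2, a matricellular thrombospondin and a fibulin of basement membranes, were lower, at 31.9 and 26.5 CPM against 67.1 to 86.7 CPM and at 247 and 250 CPM against 379 to 720 CPM. Of 19 measured proteases and inhibitors, the metalloproteinases Mmp9, Mmp11 and Adamts12 were higher, and Mmp19 was among the lower. Mmp11 stood at 89.1 and 91.0 CPM in control cells of cluster 18, against 14.0 to 43.3 CPM, and Adamts12 at 310 and 268 CPM, against 56.2 to 85.6 CPM. Mmp19 stood at 62.7 and 63.9 CPM in control cells, against 207 to 262 CPM.

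Lipid and guidance genes added a few members. Lpl, the lipase that frees fatty acids from lipoproteins and a lipofibroblast marker, stood at 844 and 822 CPM in KD cells and at 918 and 1107 CPM in control cells of cluster 18. Cluster 11 of the controls held 447 and 620 CPM and clusters 0 and 8 held 117 to 173 CPM. It was the 1 of 7 measured lipid storage genes that was higher, Adipoq was at 0 in control cells, and cluster 22 of the Unknown Mesenchymal class held 2403 CPM of Lpl. The guidance receptors Robo2, Nrp2, Plxnd1 and Epha3 were higher, 4 of 17 measured. Epha3 stood at 84.2 and 76.2 CPM in control cells, against 36.4 and 46.2 CPM in cluster 0 and 5.95 to 12.6 CPM in clusters 8 and 11. Upk1b, a uroplakin counted among mesothelial markers, stood at 36.3 and 32.3 CPM in control cells, while the mesothelial markers Upk3b and Lrrn4 were at 0 there.

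Among 21 measured transcription factors of lung mesenchyme, 5 were higher, Foxf2, Tbx2, Meox2, Runx1 and Runx2, and Ebf1 was lower. Runx1 stood at 514 and 577 CPM in control cells of cluster 18 and Runx2 at 277 and 269 CPM. Control clusters 0, 8 and 11 held 176 to 314 CPM of Runx1 and 91.2 to 177 CPM of Runx2. Meox2, a homeobox factor, stood at 20.9 and 23.2 CPM, against 3.50 to 13.2 CPM. Ebf1 stood at 18.2 and 10.97 CPM, against 25.9 to 57.0 CPM.

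The list of immediate early and heat shock genes had the most negative median among lists with at least 15 measured members, -0.54 on the log2 scale over 15 genes. Shorter lists with lower medians were the myofibroblast markers (-0.57 over 5 genes) and the smooth muscle markers (-1.03 over 2 genes). Neither of these held a gene called higher or lower. Fosb, a subunit of the AP-1 factor, stood at 311 and 268 CPM in KD cells and at 272 and 232 CPM in control cells of cluster 18, against 479 to 936 CPM in control clusters 0, 8 and 11. Fos stood at 314 and 283 CPM in control cells, against 443 to 573 CPM, and did not reach the 1.5-fold rule. Hspa1a, an inducible heat shock protein, was lower, at 7.15 and 11.6 CPM in control cells against 19.5 to 26.4 CPM. Median depth and mitochondrial share were also lower in cluster 18, and their part in these values was not tested.

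**Figure D3:**
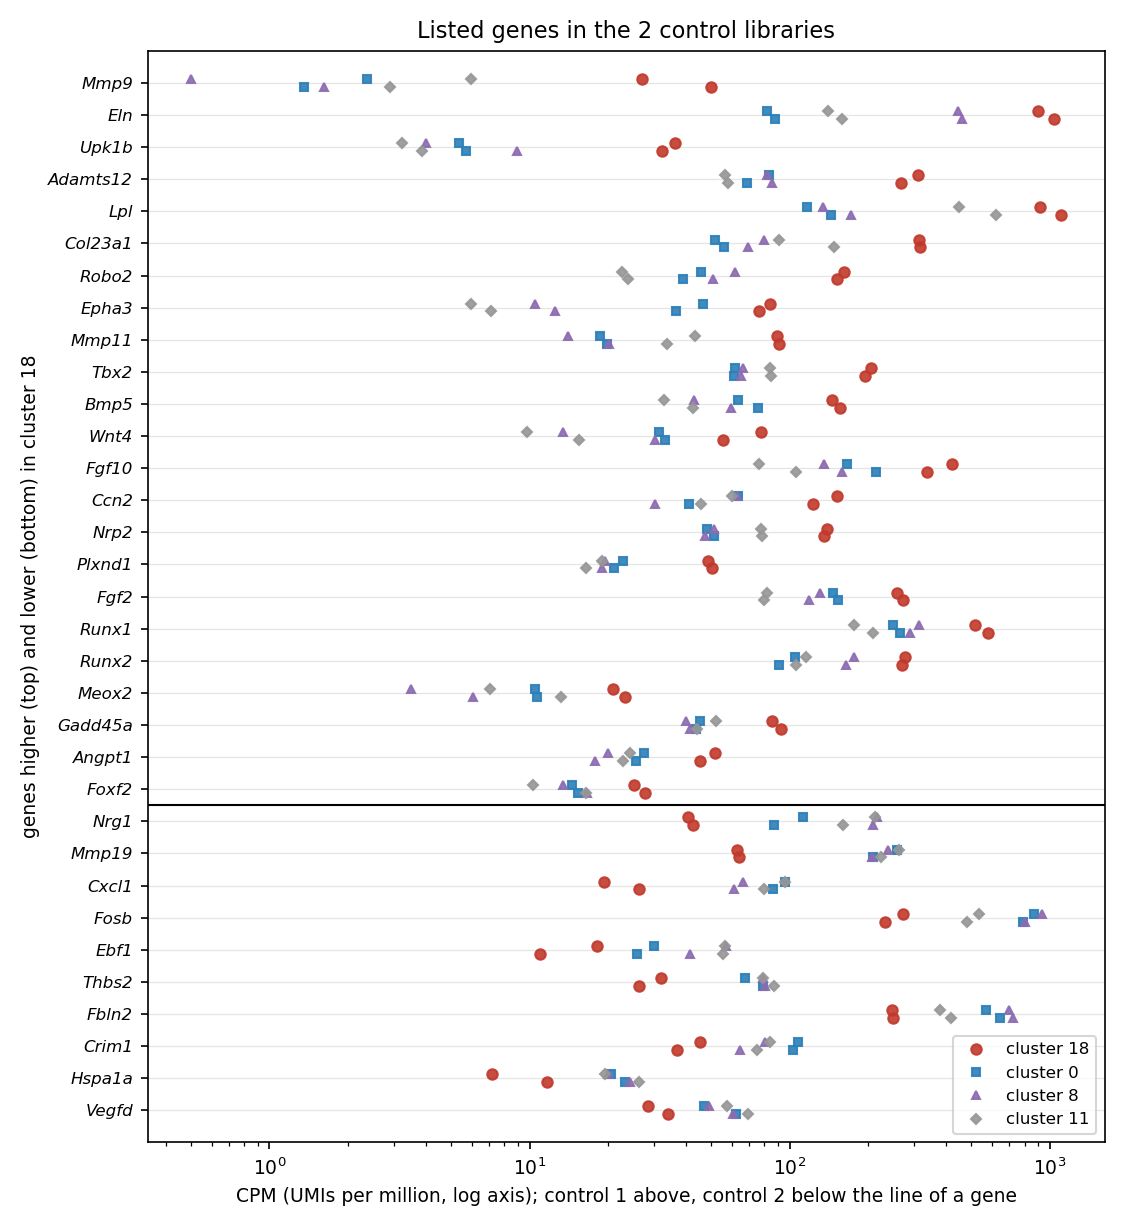
CPM (log axis) of the 23 higher and 10 of the 11 lower listed genes in control cells of cluster 18 (red circles) and of clusters 0, 8 and 11. Both control libraries are drawn for each gene, and the red points lie outside the range of the others in each row, as the rule requires.

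Set against each neighbour alone, cluster 18 stood at a like distance from all of them. At 2-fold or more in both control libraries, 174 genes were higher and 136 lower in cluster 18 than in cluster 0, 166 higher and 158 lower than in cluster 8, and 195 higher and 96 lower than in cluster 11, of 8643 genes each. Among the neighbours themselves the same rule found 50 genes higher and 76 lower in cluster 0 than in cluster 8. It found 134 higher and 101 lower in cluster 0 than in cluster 11, and 123 higher and 59 lower in cluster 8 than in cluster 11.

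The same cells also carried measures of open chromatin (ATAC) deposited per cell, which are not gene levels. The sources used here do not say whether ATAC data entered the clustering. The median enrichment of ATAC signal at gene start sites was 15.97 and 14.63 in KD cells and 15.05 and 15.11 in control cells of cluster 18. The rest of the class read 14.0 and 12.65 in KD libraries and 13.6 and 14.0 in control libraries. The difference was 1.63 ± 0.425 (SD over 4 libraries), and cluster 18 was higher in 4 of 4 libraries. It was also higher in 4 of 4 libraries than each of clusters 0, 5, 8 and 11 alone, with a smallest difference of 0.36 to cluster 11. An exact two-sided sign-flip permutation test over the 4 libraries gave p = 0.125, the smallest it can give, and 0.125 after Benjamini-Hochberg adjustment over the 4 ATAC measures, so it cannot pass 0.05.

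Median ATAC fragments per cell were 12678 and 20671 in KD cells and 7396 and 8964 in control cells of cluster 18. The rest of the class held 16015 and 25631 fragments in KD libraries and 8625 and 10047 in control libraries, so cluster 18 was lower in 4 of 4 libraries. The share of ATAC reads in promoters was 21.8% and 21.8% in KD cells and 21.5% and 21.4% in control cells of cluster 18. The rest of the class held 20.4% and 19.2% in KD libraries and 20.5% and 20.8% in control libraries. Cluster 11 alone held 21.49% and 21.67% in control libraries, above the 21.47% and 21.40% of cluster 18. In KD libraries cluster 11 held 21.2% and 19.9%, below cluster 18. Among cells with 5000 to 15000 fragments, the difference in start-site enrichment was 1.15.

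**Figure D4:**
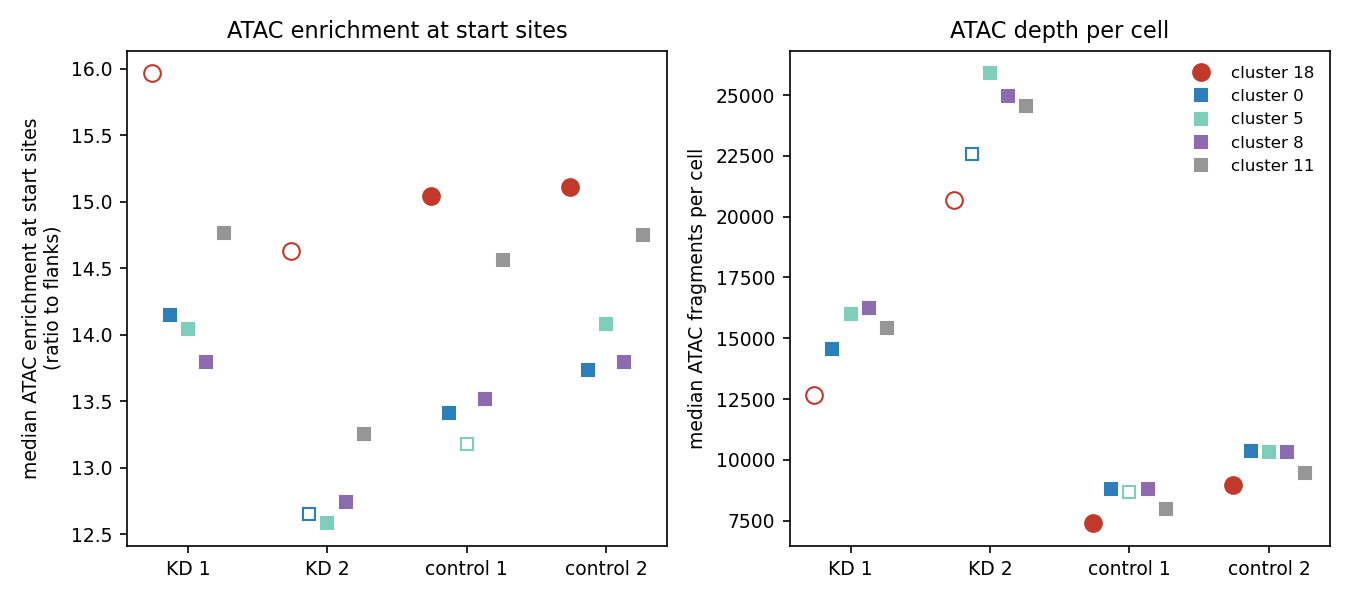
Median ATAC enrichment at start sites (left, a ratio to flanking sequence) and median ATAC fragments per cell (right) for each cluster and library. Open symbols mark sums of fewer than 50 cells, and the axes do not start at 0. Cluster 18 has the highest enrichment and the lowest fragment count in each of the 4 libraries.

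The effect of the knockdown inside cluster 18 was not tested, because its KD libraries hold 48 and 11 cells and a minimum of 50 per library was set. The values of the targeted genes are given without a test. Yap1 stood at 25.9 CPM (95% exact Poisson interval 8.40 to 60.4) and 16.8 CPM (0.425 to 93.5) in KD cells, from 5 and 1 UMIs, and at 58.3 and 65.8 CPM in control cells of cluster 18. Wwtr1 stood at 233 CPM (170 to 312) and 218 CPM (116 to 373) in KD cells and at 296 and 277 CPM in control cells. Both KD values lay under both control values for each gene. The intervals of the KD cells reached the control values except for Yap1 in KD library 1, whose interval reached 60.4 CPM and so included 1 of the 2 control values.

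Mmp9, a gelatinase, stood at 93.2 CPM (55.2 to 147) and 134 CPM (58.0 to 265) in KD cells, against 27.0 CPM (19.95 to 35.6) and 49.7 CPM (39.2 to 62.1) in control cells of cluster 18. Control clusters 0, 8 and 11 held 0.500 to 5.95 CPM, but KD clusters 5, 8 and 11 held 32.1 to 104 CPM, and cluster 5 of KD library 1 was above cluster 18 of that library. Thinned to 1000 UMIs, 18.8% and 9.09% of KD cells and 2.26% and 4.48% of control cells of cluster 18 had a UMI of Mmp9. Among AT2 cells of cluster 9 the shares were 1.69% and 2.64% in KD libraries and 0.205% and 0% in control libraries, where 0 of 492 cells gives an upper 95% exact bound of 0.747%. The part of free RNA in the KD values was not tested.

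Where each library held 50 cells, in clusters 8 and 11, the knockdown could be tested, and the leading genes of cluster 18 were followed there. In cluster 8, 6 of the 20 leading genes rose and none fell, where 1.73% of 10766 genes rose and 2.04% fell over the whole table, 3.77% in either direction (edgeR quasi-likelihood test, adjusted p under 0.05). At an unadjusted p under 0.05, 7 rose and 3 fell. DESeq2 called 4 risen and 0 fallen, and limma voom called 5 risen and 0 fallen. The median log2 change of the 20 genes was -0.13, against 0.01 over all genes. In cluster 11, 0 of the 18 tested leading genes rose or fell, where 0.4% of 9254 genes rose and 0.119% fell, 0.519% in either direction. At an unadjusted p under 0.05, 1 rose and 2 fell there, and DESeq2 and limma voom called none. Eepd1 and Megf10 were too low in cluster 11 to be tested. Normalised levels in the next sentences are CPM after TMM scaling.

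Thsd4 stood at 125 and 72.6 CPM in KD cells of cluster 8, against 53.1 and 52.7 CPM in control cells, a log2 change of 0.92 ± 0.20 (SE) with an adjusted p of 0.0117 by edgeR. Nrep, which promotes TGF-β translation in wound fibroblasts, stood at 121 and 122 CPM in KD cells of cluster 8, against 75.7 and 72.2 CPM in control cells. Its log2 change was 0.71 ± 0.15 (SE), with an adjusted p of 0.00978 by edgeR. Spon1 stood at 230 and 199 CPM in KD cells of cluster 8, against 124 and 130 CPM in control cells, and Fmo2 at 164 and 164 CPM, against 110 and 76.7 CPM. Both had an adjusted p of 0.0069 by edgeR. Tbx2 stood at 97.3 and 103 CPM in KD cells against 64.9 and 64.9 CPM in control cells of cluster 8, with an adjusted p of 0.027 that was lost under 5 of 10 alternatives. Megf10 rose at a low level, with 11.1 and 14.9 CPM in KD cells against 3.44 and 6.09 CPM in control cells, with an adjusted p of 0.0401 by edgeR that was lost under 3 of the 9 alternatives that gave it a value, since DESeq2 gave no adjusted p. The calls of the other 4 genes were each lost under 1 of the 10. Without KD library 1 the edgeR adjusted p was 0.311 for Thsd4 and 0.0581 for Spon1, without KD library 2 it was 0.0546 for Nrep, and without control library 2 it was 0.0737 for Fmo2. The highest adjusted p over the alternatives was 0.183 for Tbx2 and 0.269 for Megf10. KD libraries hold far fewer cells in cluster 18, so a rise of these genes in cluster 8 and an assignment of cells of this kind to cluster 8 cannot be told apart.

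Of the targeted genes, Yap1 fell in cluster 8, at 46.7 and 39.8 CPM in KD cells against 65.4 and 76.3 CPM in control cells (adjusted p 0.026 by edgeR), and Wwtr1 fell there, at 208 and 197 CPM against 300 and 296 CPM (adjusted p 0.0421 by edgeR). The call of Yap1 was lost under 2 of the 9 alternatives with a value and that of Wwtr1 under 4 of 10, each leaving out 1 library, with adjusted p up to 0.246 for Yap1 and 0.334 for Wwtr1. In cluster 11 Yap1 (adjusted p 0.0842) and Wwtr1 (adjusted p 0.344) did not pass the edgeR test. Yap1 passed there, lower in KD cells, under 3 of 10 alternatives, among them no filter on low counts and without control library 1, with an adjusted p between 0.00452 and 0.796 over the 10. Wwtr1 passed under none. Mmp9 rose in cluster 8, at 48.1 and 31.8 CPM in KD cells against 0.492 and 1.62 CPM in control cells (adjusted p 1.64e-07 by edgeR), and in cluster 11, at 63.1 and 59.5 CPM against 5.85 and 2.92 CPM (adjusted p 1.89e-05 by edgeR). Neither Mmp9 call was lost under an alternative that gave a value, 9 in cluster 8 and 10 in cluster 11. Of the low genes of cluster 18, Cxcl1 rose in cluster 8 (adjusted p 0.0343) and in cluster 11 (adjusted p 0.00688) by edgeR, and Myadm rose in cluster 8 (adjusted p 0.0303). In cluster 8 the call of Cxcl1 was lost under 3 alternatives and that of Myadm under 2, each with 1 library left out except DESeq2 for Cxcl1. Wnt4 did not pass in cluster 8, at 30.8 and 26.4 CPM in KD cells against 13.3 and 30.4 CPM in control cells (adjusted p 0.549 by edgeR), or in cluster 11, at 25.6 and 42.8 CPM against 9.58 and 15.6 CPM (adjusted p 0.123). In cluster 11 Wnt4 passed, higher in KD cells, under 4 of the 9 alternatives with a value, among them no filter on low counts, without KD library 1 and without control library 2 (adjusted p 0.00450 to 0.621 over the 9). In cluster 8 it passed, higher in KD cells, without control library 2 alone (adjusted p 0.0241).

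**Figure D5:**
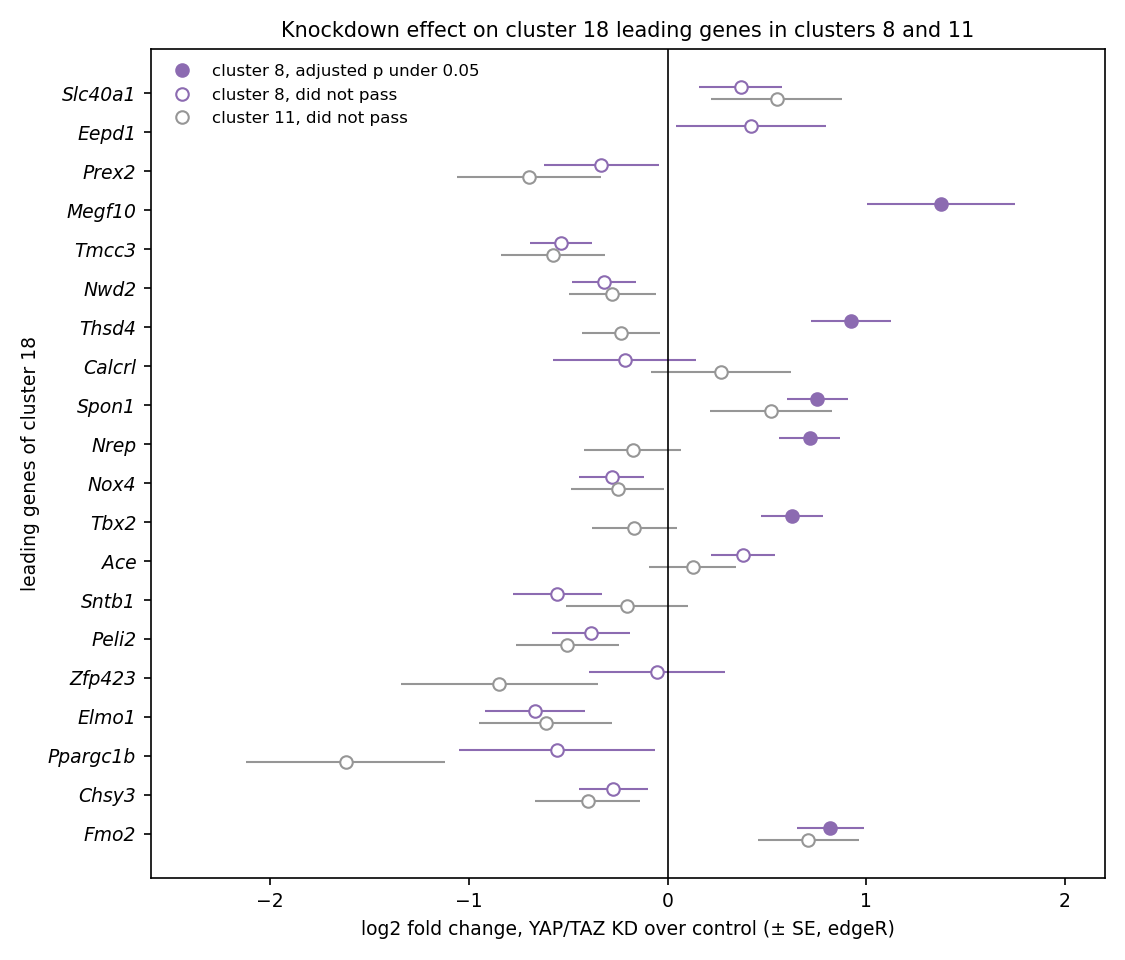
Log2 fold change of KD over control (points) with its SE (lines) for the 20 leading genes of cluster 18, measured in cluster 8 (purple) and cluster 11 (grey). Filled points passed an adjusted p of 0.05 in edgeR. The 6 filled points, all of cluster 8 and all above 0, are Megf10, Thsd4, Spon1, Nrep, Tbx2 and Fmo2.

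The promoters of the leading genes were searched for the binding motif of TEAD factors, the partners of YAP and TAZ, and for a T-box motif, in RefSeq windows (GRCm38.p6) of 250 bases before to 50 bases after each start. Windows were found for 11 of the 20 genes. GGAATG or its reverse complement CATTCC occurred in 1 of the 11, Eepd1, where 16.6% of all 27025 genes with a window hold it. The T-box motif GGTGTGA or TCACACC occurred in 1 of the 11, Nwd2, against 4.60% of all genes. Both strands were searched, the motifs do not overlap each other, and a match is a match of letters only. The 250 bases before the start of Eepd1, chr9:25481347-25481596 on the plus strand, are printed with the TEAD match in capitals.
Eepd1: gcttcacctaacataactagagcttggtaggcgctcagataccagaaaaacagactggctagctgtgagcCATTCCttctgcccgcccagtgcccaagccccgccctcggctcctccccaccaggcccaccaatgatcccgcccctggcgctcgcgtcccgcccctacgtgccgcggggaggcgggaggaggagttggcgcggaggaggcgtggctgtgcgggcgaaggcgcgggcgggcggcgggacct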

How the data were processed

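Per the labels' protocols, the 4 libraries were made with a 10x kit for joint RNA and ATAC profiling of single cells. The authors deposited whole-number UMI counts for 45936 cells and 32285 genes, not normalised, and the sum of each cell equalled the UMI count in their cell table in 45936 of 45936 cells. They also deposited the mitochondrial share as a percent, the promoter share of ATAC reads as a fraction (printed as percent), and ratios for start-site enrichment, nucleosome signal and doublet enrichment, with no further description. The cell table has 44 more columns, not used here. The builds named are GRCm38 and mm10, per the submitters' processing notes, and neither aligner nor counter is given in the sources used here. No doublet caller was run, and no cells were removed.

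Counts were summed per library and cluster and divided by the sum of the library and cluster (CPM). Cluster 18 was compared with other clusters by description, since clusters come from the same genes. Exact Poisson intervals (95%) are printed for Wnt4, Yap1, Wwtr1 and Mmp9 in cluster 18. Other levels carry none, also where few UMIs lie behind them. KD was compared with control by edgeR 4.0.16 (quasi-likelihood, TMM, its default filter on low counts, Benjamini-Hochberg adjustment) in R 4.3.3, in clusters with at least 50 cells per library, which were clusters 8 and 11. The test was also run on simulated counts with the same dispersion (spread between libraries) for every gene. That run checks the code and not the error rate in these data. DESeq2 1.42.0 and limma 3.58.1 (voom) were alternatives. The labels call the libraries biological replicates but name no separate animals or cultures, so a p-value covers only the spread among these libraries and that spread may be technical. Named genes were the 20 leading and the 12 low genes by the stated rules, the listed genes called higher or lower, and Yap1, Wwtr1 and Wnt4; 2 of the low genes are not reported here. Members and gene lists were chosen with earlier results of these data known. The ATAC measures, the thinned shares, the motifs and the control-only rule were chosen after the data were seen, as were Mmp9 and single listed genes named without a call. Coordinates are from GENCODE M21, which holds 32158 of the 32285 deposited gene IDs.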

Additional observations from a re-analysis of the deposited data

Results flagged for a closer look

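A scan of the leading and low genes of cluster 18 flagged Thsd4 and Nrep, both leading genes. Their KD and control libraries were separated in opposite directions in clusters 8 and 11. In cluster 8 both KD libraries lay above both control libraries, and in cluster 11 both KD libraries lay below both control libraries. Such separation was not limited to Thsd4 and Nrep. Of the leading genes, 9 of 20 lay above and 7 below in cluster 8, and 2 of 18 above and 9 below in cluster 11. The share over all genes was not counted, so these counts have no baseline to be read against. The log2 change of Thsd4 in cluster 8 exceeded that in cluster 11 by 1.16, and that of Nrep by 0.89. This difference was not tested, and in cluster 11 the change of neither gene passed the edgeR test.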

How the results depend on the processing

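The count of leading genes, 451, moved to 182 with cells of under 20% mitochondrial UMIs, which left 14 and 9 KD cells and 419 and 402 control cells of cluster 18. Of the 20 named leaders, 15 still met the rule there, and the weakest margin changed sign for Nwd2 (-0.033), Peli2 (-0.18), Zfp423 (-1.49), Ppargc1b (-0.33) and Fmo2 (-0.91). The cause was not tested. All 20 still met the rule under each other setting, but their ranks were less stable. Of the 20, 11 were among the first 20 with cells of under 20% mitochondrial UMIs, and 14 to 17 with 1 library left out. In control libraries alone 9 were among the first 20, and in KD libraries alone 8. The count was 586 to 762 with 1 library left out, 1867 in control libraries alone against clusters 0, 8 and 11, and 1443 in KD libraries alone against clusters 5, 8 and 11, where fewer sums must be exceeded. The 2 last settings, a scale without mitochondrial UMIs (317) and a run without the 2 thinnest sums (626) were added after seeing the data. Start-site enrichment differed by 1.15 among cells with 5000 to 15000 fragments and by 1.51 to 1.80 with 1 library left out. The fragment difference was -3175 to -1883 with 1 library left out. The count of genes changed in cluster 8, 406, was 128 by DESeq2 and 189 to 592 with 1 library left out. In cluster 11 the count of 48 was 29 by DESeq2, 176 with no filter on low counts and 59 to 176 with 1 library left out, where a group of 1 library is assumed to vary like the other. With the replicate number as a block, cluster 8 gave 1388 and cluster 11 gave 370 calls, with 7 leading genes risen and 1 fallen in cluster 8. The labels do not tie the numbers to a shared animal or day, and the deviations of equally numbered libraries correlated at 0.075 in cluster 8 and 0.083 in cluster 11 over 2 pairs, so they were not taken as paired. Over the named genes and these alternatives, 23 calls were lost and 14 gained in cluster 8, 0 lost and 10 gained in cluster 11, and none reversed. The planned tests of the knockdown within cluster 18 and of its difference from the other clusters were not run, with their alternatives, because 2 libraries hold under 50 of its cells, so no paired analysis was possible for them. KD levels in cluster 18 below about 16.8 CPM in library 2 are under 1 UMI.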
